A study of Mus musculus with 20 samples.

Results

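The collagen chain genes were taken as the protein-coding genes of the deposited table whose symbol is Col, a number, the letter a and a number. This rule found 44 of 32285 genes. By the build of their proteins they were sorted into 11 fibrillar, 6 basement membrane, 6 beaded filament, 9 FACIT and 4 transmembrane chains. A further 3 chains form short-chain networks, 2 are multiplexins, 1 builds anchoring fibrils and 2 (Col26a1 and Col28a1) stand outside these classes.

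The cells were murine cancer-associated fibroblasts (CAFs), the fibroblasts of the tumour stroma, taken from primary culture and immortalised, and polyadenylated RNA of 20 libraries was sequenced. The 4 groups of 5 libraries were 25 uM EIPA in 0.2 mM glutamine, vehicle in 0.2 mM glutamine, IL-1a at 25 pg/mL in 4 mM glutamine and vehicle in 4 mM glutamine. Each lasted 32 h, and the vehicle DMSO was present in every group. EIPA inhibits sodium-proton exchangers and serves as an inhibitor of macropinocytosis, by which cells engulf fluid and dissolved protein from outside, and IL-1a is an inflammatory cytokine. The titles give EIPA as 25 uM where the treatment protocol writes mM, and the titles are followed here. Neither the number of CAF lines nor the source of the 5 replicates, separate cultures or not, is in the labels, so p-values reflect the spread among these libraries alone, which may be technical.

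Collagens are secreted proteins whose chains wind around each other into a helix. Fibrillar collagens assemble outside the cell into the cross-striated fibrils that give tissue its tensile strength, type IV collagen forms the sheet-like network of basement membranes, and type VI forms beaded microfilaments between them. FACITs (fibril-associated collagens with interrupted helices) sit on the surface of fibrils. Fibroblasts are the main source of fibrillar collagen in connective tissue, and CAFs lay down much of the dense matrix of pancreatic tumours. Collagen chains are rich in glycine and proline, and proline can be made from glutamine.

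Levels are in TPM, which are scaled for transcript length and for the library's total and can be compared between genes. Of the 44 chains 24 reached 1 TPM in at least 5 libraries and were tested, 9 fibrillar, 4 basement membrane, 3 beaded filament, 3 FACIT, 1 anchoring fibril, 2 short-chain and 2 multiplexin chains, and none of the 4 transmembrane chains. In all 20 libraries 18 chains reached 1 TPM. The other 6 tested chains reached it in 9 (Col20a1), 10 (Col11a2, Col5a3 and Col15a1), 13 (Col8a2) and 15 libraries (Col6a3). Col20a1 and Col11a2 passed through the 0.2 mM libraries, and Col5a3 through the 4 mM libraries. Such a chain, under 1 TPM at 1 glutamine level, was tested only because it reached 1 TPM at the other, so counts over the chains tested are descriptions.

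**Figure D1:**
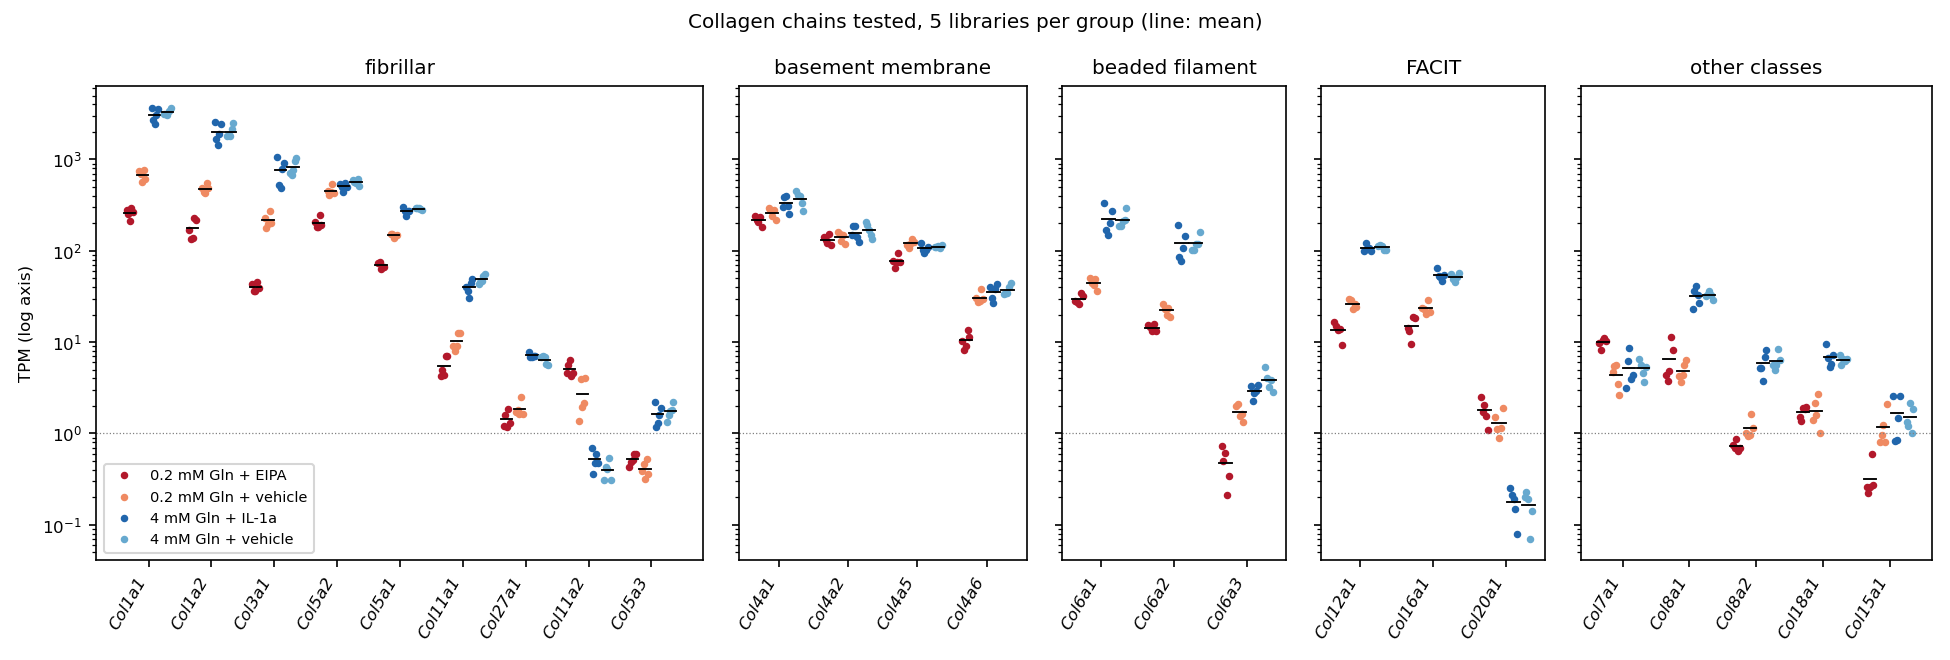
TPM (log axis) of the 24 collagen chains tested, by class, in 0.2 mM glutamine with EIPA, 0.2 mM with vehicle, 4 mM with IL-1a and 4 mM with vehicle. Each point is a library, each line the mean of 5, and the dotted line marks 1 TPM. Col1a1 spans 211 to 297 TPM with EIPA and 3046 to 3697 TPM in vehicle at 4 mM glutamine, while Col4a2 stays between 115 and 209 TPM in all 20 libraries.

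The cells carried fibroblast transcripts, 7 of 9 markers with a mean of at least 1 TPM, led by Vim at 2415 TPM, while Fap (0.0505) and Lum (0.1) were near 0. Ptprc (0.0005), Epcam (0.103), Pecam1 (0.0775), Rgs5 (0.096) and Sox10 (0) were at or near 0 TPM. Of other cell types, 1 of 7 leukocyte (Cd68, 3.64 TPM), 2 of 7 epithelial (Krt18, 10.3, and Krt19, 176), 1 of 6 endothelial (Kdr, 4.95), 1 of 6 mural (Mcam, 7.78) and 1 of 5 Schwann cell markers (Mbp, 31.4) averaged 1 TPM or more, and all 6 mesothelial markers were expressed, with Msln at 89.2 and Wt1 at 123 TPM. Mitochondrially encoded mRNAs took 5.69% ± 0.63 of TPM with EIPA and 8.87% ± 0.28 with vehicle at 0.2 mM (SD, n = 5 each; exact permutation p = 0.007937, which is the smallest this design allows, and 0.0119 adjusted over 3 comparisons). They took 10.4% ± 1.17 with vehicle at 4 mM, and EIPA libraries therefore leave more of the fixed TPM total to other genes. IL-1a replicates 1 and 5 and vehicle replicate 5 at 4 mM stood apart from the other 7 libraries at 4 mM, with 201, 235 and 231 TPM of Ccn1, a matrix-associated protein gene, against 379 to 599 TPM.

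Collagen chains together made up 1294 ± 142 TPM with EIPA and 2670.1 ± 249 TPM with vehicle at 0.2 mM glutamine, and 7867 ± 1358 TPM at 4 mM with IL-1a and 8296 ± 685 TPM there with vehicle (SD, n = 5 each). Fibrillar chains held 58.8% ± 2.20 of this collagen RNA with EIPA, against 74.2% ± 1.28 with vehicle at 0.2 mM. Basement membrane chains held 33.8% ± 2.33 with EIPA and 20.8% ± 1.04 with vehicle. Without the 3 libraries that stood apart, the means at 4 mM were 6969 TPM (IL-1a) and 8035 TPM (vehicle). At 4 mM glutamine, vehicle libraries had 84.8% ± 1.62 in fibrillar and 8.45% ± 1.72 in basement membrane chains. The ranges of both shares did not overlap between EIPA and vehicle at 0.2 mM, or between vehicle at 0.2 mM and at 4 mM. In bulk RNA, fewer cells of a type and less RNA per cell cannot be told apart.

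**Figure D2:**
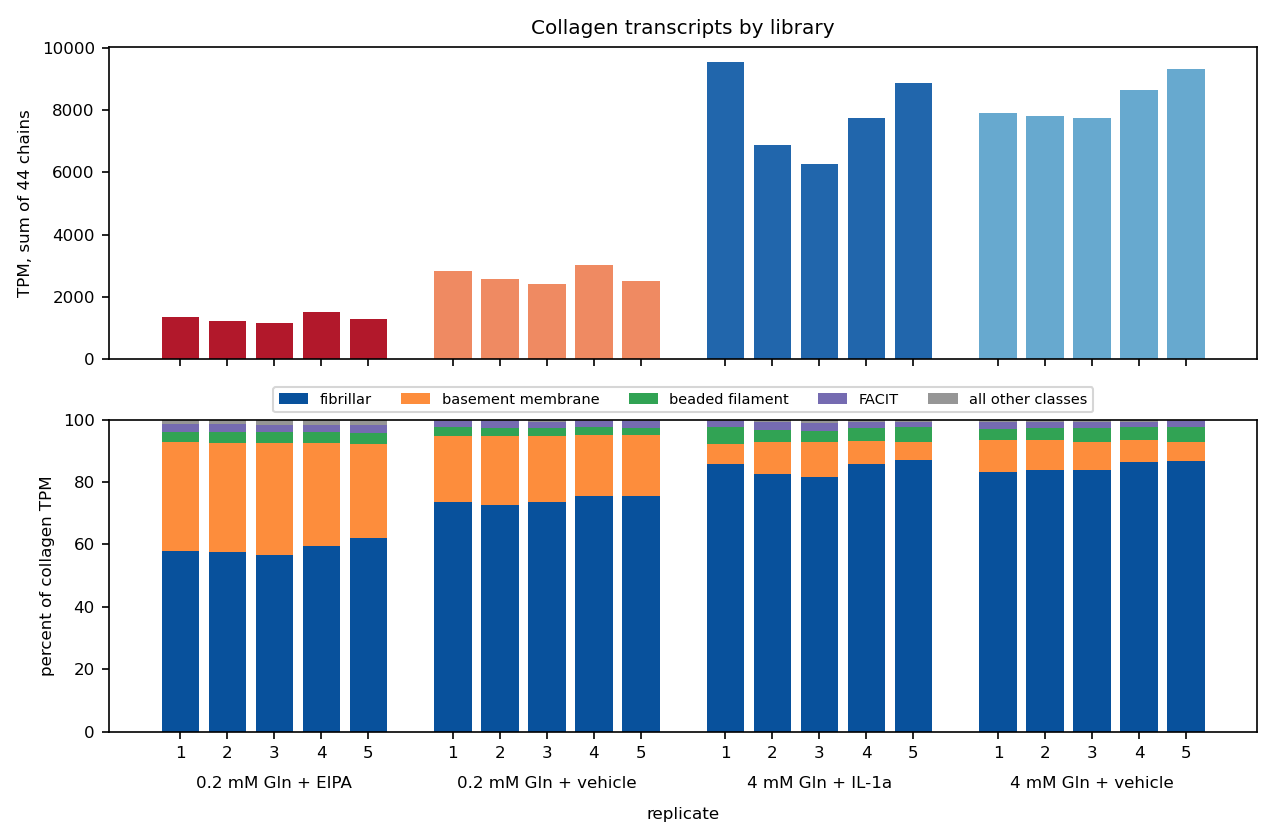
Summed TPM of the 44 collagen chains in each of the 20 libraries (top, bars from 0) and the percent of that sum in each class (bottom), with replicates 1 to 5 of each group. Fibrillar chains made up 56.5 to 62.2% of collagen TPM with EIPA and 72.7 to 75.6% with vehicle at 0.2 mM glutamine, while the basement membrane share was 30.2 to 36.0% with EIPA and 19.6 to 22% with vehicle.

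The first comparison asks how collagen transcripts respond to EIPA when glutamine is short, with vehicle at 0.2 mM as its control. With EIPA 14 of the 24 chains tested fell, 2 rose and 8 were not called (limma on log2(TPM + 1), adjusted p under 0.05 over 12350 genes), where 21.1% of all genes tested were called lower, 27.4% higher and 48.5% in either direction. The median chain changed by -0.62 on the log2 scale and the median gene by 0.02. The EIPA and vehicle libraries did not overlap in 17 of the 24 chains, 15 of them lower and 2 higher, and in 34.6% of all genes tested (14.7% lower and 20% higher). By class, 6 of 9 fibrillar, 2 of 4 basement membrane, 3 of 3 beaded filament and 2 of 3 FACIT chains fell, and so did 1 of 2 multiplexins. The summed TPM with EIPA was 0.384 of that with vehicle for fibrillar, 0.789 for basement membrane, 0.648 for beaded filament and 0.603 for FACIT chains. Scaled to a total without the mitochondrial genes, 15 chains were called lower and 2 higher. The marker lists moved as well. The summed fibroblast markers were at 1748 to 1954 TPM with EIPA, against 2342 to 2636 TPM with vehicle, and the mesothelial markers at 186 to 294 TPM with EIPA, against 334 to 473 TPM with vehicle. Epithelial markers were at 89.1 to 120.1 TPM with EIPA and 133 to 206 TPM with vehicle, mural markers at 3.18 to 4.3 TPM with EIPA and 7.15 to 10.2 TPM with vehicle, and Schwann cell markers at 23.6 to 30.8 TPM with EIPA and 31.3 to 36.8 TPM with vehicle. Leukocyte markers were higher, at 7.58 to 9.41 TPM with EIPA and 1.96 to 2.65 TPM with vehicle. None of these 6 lists overlapped between the groups, and their part in these results was not tested.

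**Figure D3:**
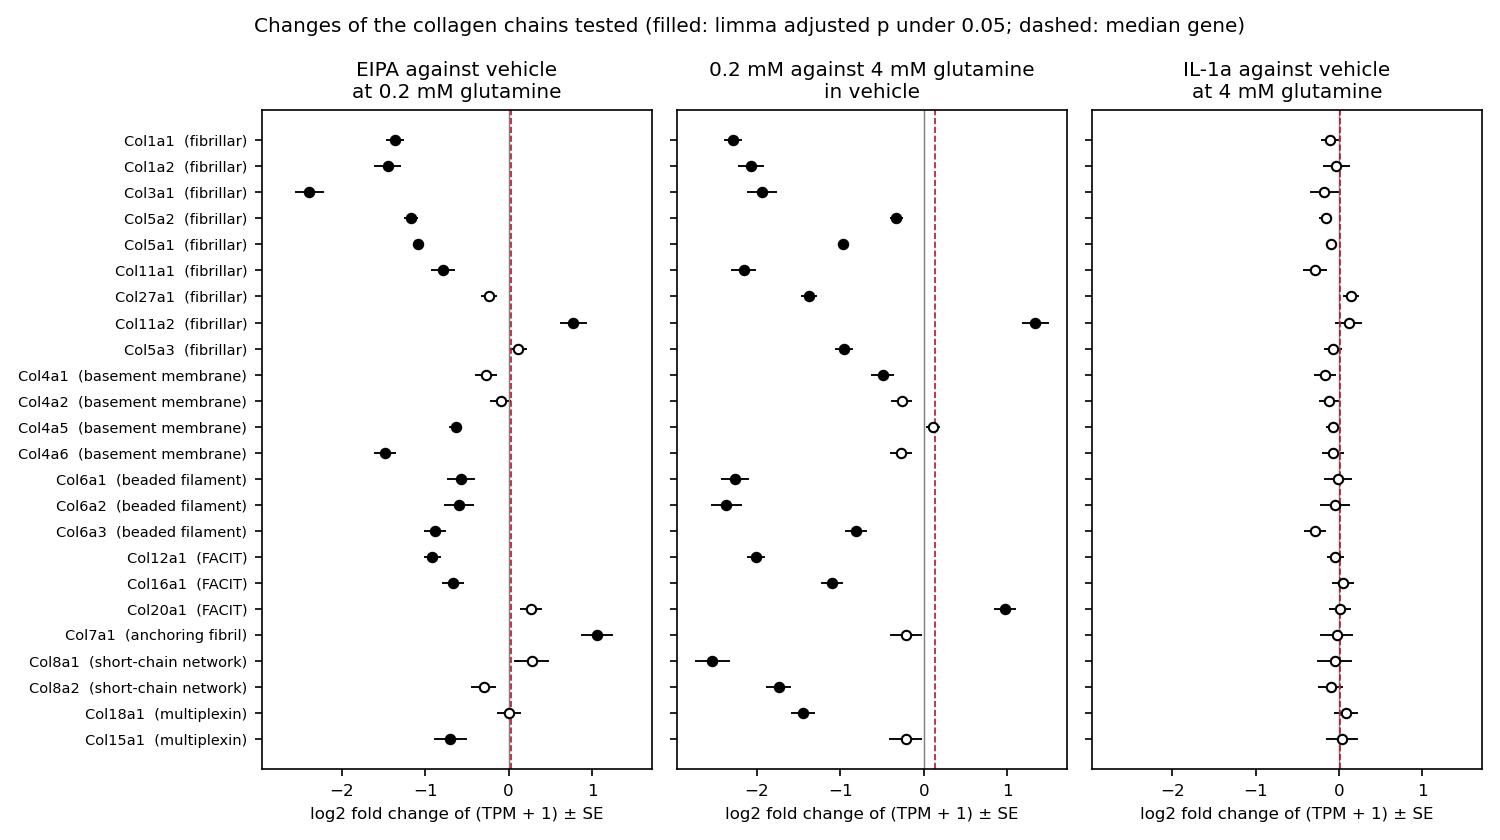
Log2 fold change of (TPM + 1) with its SE for the 24 chains tested, in the order of their classes, for EIPA against vehicle at 0.2 mM glutamine, 0.2 mM against 4 mM glutamine in vehicle, and IL-1a against vehicle at 4 mM. Filled points were called by limma, open points were not, and the dashed line is the median of all genes tested, from which the points are not shifted. In the EIPA panel 14 chains are filled to the left and Col7a1 and Col11a2 to the right, and in the IL-1a panel no point is filled.

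Type I collagen, the main protein of fibrils in skin, tendon and tumour stroma, is built of Col1a1 and Col1a2 chains. Col1a1 had 282, 254, 211, 297 and 264 TPM with EIPA, against 744, 690.3, 573, 761 and 607 TPM with vehicle. Col1a2 had 167, 135, 138, 231 and 217 TPM with EIPA, against 492, 435, 426, 553 and 484 TPM with vehicle. Every EIPA library was below every vehicle library in both genes, and the log2 fold changes were -1.36 ± 0.11 (SE, limma adjusted p = 2.7e-09) for Col1a1 and -1.45 ± 0.16 (limma adjusted p = 3.0e-07) for Col1a2. Signed values in brackets hereafter are log2 fold changes of TPM + 1 with their SE. In mm10, Col1a1 (ENSMUSG00000001506) is at 94936224 to 94953042 of chromosome 11 (plus strand) and Col1a2 (ENSMUSG00000029661) is at 4504814 to 4541544 of chromosome 6 (plus strand).

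Col3a1, the chain of type III collagen, which forms thin fibrils with type I, fell most of all 24 chains. It had 43.7, 36, 36.3, 45.4 and 38.7 TPM with EIPA, against 227, 179, 196, 275 and 200.1 TPM with vehicle. The lowest vehicle library was far above the highest EIPA library, and the change was -2.39 ± 0.18 (limma adjusted p = 1.2e-09). Col3a1 is at 45311538 to 45349706 of chromosome 1 (plus strand). Type V collagen starts fibrils and limits their width: Col5a1 averaged 69.1 ± 5.26 TPM with EIPA and 147 ± 6.28 TPM with vehicle (SD, n = 5 each; -1.08 ± 0.06, limma adjusted p = 3.7e-12). Col5a1 shares 99 exon bases with the antisense gene 2810430I11Rik, which averaged 0.827 TPM. The partner chain Col5a2 averaged 200.4 ± 26.3 TPM with EIPA and 451 ± 48.4 TPM with vehicle (-1.17 ± 0.08). The rarer type V chain Col5a3 stayed at 0.43 to 0.6 TPM with EIPA and 0.32 to 0.53 TPM with vehicle (0.11 ± 0.11, limma adjusted p = 0.42).

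The chains of type XI collagen, a fibril nucleator best known from cartilage, moved in opposite directions. Col11a1 averaged 5.52 ± 1.42 TPM with EIPA and 10.2 ± 2.20 TPM with vehicle and fell (-0.79 ± 0.15, limma adjusted p = 1.7e-04). Col11a2 had 4.61, 5.6, 6.29, 4.3 and 4.64 TPM with EIPA, against 1.38, 3.94, 1.94, 2.15 and 4.07 TPM with vehicle, and rose (0.77 ± 0.16, limma adjusted p = 5.8e-04). The lowest EIPA library of Col11a2 lay just above the highest vehicle library. The summed chondrocyte markers were higher with EIPA, 13.9 to 16.4 TPM against 4.6 to 5.99 TPM with vehicle, and their part in the result was not tested. Of the 6 markers 1, the transcription factor gene Sox9, averaged 1 TPM or more over the 20 libraries. Acan, the gene of the main cartilage proteoglycan, averaged 0.004 TPM and Matn1 and Hapln1 were listed at 0. Col27a1, a fibrillar chain of cartilage and other tissues, was at 1.19 to 1.84 TPM with EIPA and 1.62 to 2.5 TPM with vehicle (-0.23 ± 0.10, limma adjusted p = 0.056). It was called lower with a pseudocount of 0.1, median-of-ratios scaling, mitochondrial genes left out or no intensity trend.

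Of the 4 basement membrane chains tested, Col4a5 and Col4a6 fell with EIPA and Col4a1 and Col4a2 were not called, and the difference between these chains was not tested. Col4a1 had 243, 219, 205, 237 and 181 TPM with EIPA, against 290.3, 281, 239, 277 and 219.6 TPM with vehicle. Col4a2 had 141, 129.7, 122, 151 and 115 TPM with EIPA, against 162, 151, 129, 147 and 118 TPM with vehicle. These chains, which build the standard type IV network of most basement membranes, overlapped between the groups and were not called (-0.27 ± 0.13, limma adjusted p = 0.10, and -0.10 ± 0.12, limma adjusted p = 0.54). Col4a1 was called lower in the fit of the EIPA and vehicle groups alone and in the fit without the 3 libraries that stood apart. It was also called lower in a fit with the replicate number as a block. Col4a5 and Col4a6 form a further network found in some epithelial and smooth muscle basement membranes. Col4a5 averaged 77.4 ± 10.9 TPM with EIPA and 120.3 ± 9.91 TPM with vehicle and fell, with a log2 change of -0.64 ± 0.08 (limma adjusted p = 2.2e-06). Col4a6 had 10.3, 8.16, 9, 13.6 and 11.3 TPM with EIPA, against 30.3, 27.4, 28.3, 37.8 and 29.9 TPM with vehicle, where replicate 4 was high. Its groups did not overlap, and it fell (-1.48 ± 0.13, limma adjusted p = 1.5e-08).

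Each of these couples lies head to head in mm10. Col4a1 is at 11198423 to 11312826 of chromosome 8 (minus strand) and Col4a2 at 11312805 to 11449287 of chromosome 8 (plus strand), so that their first exons share 22 bases on opposite strands. Col4a6 is at 141165403 to 141474076 of chromosome X (minus strand) and Col4a5 at 141475385 to 141689234 of chromosome X (plus strand), and the RefSeq first bases of these genes are 1343 bases apart. The labels do not say whether counting used strand, so reads in shared bases cannot be assigned with certainty.

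Type VI collagen is built of Col6a1, Col6a2 and a longer chain, most often Col6a3. Col6a1 had 28.4, 27.2, 26.2, 34.2 and 31.7 TPM with EIPA, against 49.8, 44.1, 42.5, 49.5 and 36.7 TPM with vehicle. Col6a2 had 15.5, 14.5, 13.1, 15.7 and 13.2 TPM with EIPA, against 26.1, 23.3, 20, 23.6 and 18.9 TPM with vehicle. Both fell without overlap (-0.57 ± 0.17, limma adjusted p = 0.0076, and -0.60 ± 0.18, limma adjusted p = 0.0098). The longer chain Col6a3 averaged 0.478 ± 0.208 TPM with EIPA and 1.73 ± 0.307 TPM with vehicle, and fell (-0.89 ± 0.13, limma adjusted p = 1.5e-05). In every group Col6a3 was far below its partners, and its rarer relatives Col6a4, Col6a5 and Col6a6 did not exceed 0.27, 0.12 and 0.18 TPM in any library.

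Among FACITs, Col12a1, which decorates type I fibrils, had 16.7, 14.9, 13.4, 14.1 and 9.39 TPM with EIPA, against 30, 28.9, 23.3, 25.8 and 24.1 TPM with vehicle. Col16a1, a fibril-associated chain of fibroblasts, had 14.1, 13.1, 9.56, 19 and 18.4 TPM with EIPA, against 23.9, 23.1, 20.6, 29.1 and 21.6 TPM with vehicle. Both fell and neither overlapped between the groups (-0.91 ± 0.10, limma adjusted p = 4.9e-07, and -0.67 ± 0.13, limma adjusted p = 3.7e-04). Col20a1 was at 1.1 to 2.5 TPM with EIPA and 0.89 to 1.89 TPM with vehicle (0.27 ± 0.13, limma adjusted p = 0.095). Its level is uncertain, since it shares 79 exon bases on the same strand with BX649560.1, which averaged 5.86 TPM.

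Col7a1, whose protein forms the anchoring fibrils that tie epithelial basement membranes to the stroma, was the chain that rose most. It had 9.85, 8.28, 10.4, 11 and 10.3 TPM with EIPA, against 4.76, 5.48, 5.56, 3.48 and 2.61 TPM with vehicle. Every EIPA library lay above every vehicle library, the mean ratio was 2.28, and the change was 1.06 ± 0.19 (limma adjusted p = 1.5e-04). The short-chain Col8a1, known from vessel walls and the cornea, had 4.36, 3.71, 4.86, 11.4 and 8.23 TPM with EIPA, against 4.28, 3.64, 4.38, 5.68 and 6.44 TPM with vehicle. Its partner Col8a2 had 0.74, 0.7, 0.88, 0.65 and 0.69 TPM with EIPA, against 1.02, 0.93, 0.96, 1.65 and 1.16 TPM with vehicle. EIPA replicates 4 and 5 were the highest of Col8a1. Neither chain was called (0.27 ± 0.21, limma adjusted p = 0.29, and -0.30 ± 0.15, limma adjusted p = 0.10), although the Col8a2 groups did not overlap. Col8a2 was called lower with a pseudocount of 0.1 (-0.56) and in the fit of the EIPA and vehicle groups alone (-0.30).

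The multiplexins Col18a1, precursor of the angiogenesis inhibitor endostatin, and Col15a1 lie in and under basement membranes. Col18a1 had 1.53, 1.37, 1.89, 1.84 and 1.95 TPM with EIPA, against 1.39, 2.14, 1.61, 2.71 and 1 TPM with vehicle, with no difference that could be called (limma adjusted p = 1.0). Col15a1 had 0.26, 0.22, 0.26, 0.59 and 0.27 TPM with EIPA, against 0.81, 0.95, 1.25, 0.8 and 2.09 TPM with vehicle, and fell (-0.70 ± 0.20, limma adjusted p = 0.0057). All EIPA libraries of Col15a1 were under 0.6 TPM and all vehicle libraries at 0.8 TPM or above.

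For the chains with the largest called changes with EIPA, and for the partner Col11a1 that moved against Col11a2, the 250 bases before the first base of the gene are shown from RefSeq (GRCm38.p6, the mm10 assembly), 5′ to 3′ on the gene's strand. They were chosen after their values were seen. Capitals mark matches to the CCAAT box (CCAAT), the GC box (GGGCGG), the TATA box (TATAAA) and the AP-1 site (TGANTCA), searched on both strands, so that a match on the opposite strand reads CCGCCC for a GC box and ATTGG for a CCAAT box.
Col3a1, chr1:45311288-45311537, plus strand: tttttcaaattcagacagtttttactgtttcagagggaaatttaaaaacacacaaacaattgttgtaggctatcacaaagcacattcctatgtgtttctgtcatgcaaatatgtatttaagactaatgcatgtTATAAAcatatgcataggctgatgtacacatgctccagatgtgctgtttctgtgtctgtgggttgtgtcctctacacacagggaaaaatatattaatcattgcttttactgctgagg
Col4a6, chrX:141474077-141474326, minus strand: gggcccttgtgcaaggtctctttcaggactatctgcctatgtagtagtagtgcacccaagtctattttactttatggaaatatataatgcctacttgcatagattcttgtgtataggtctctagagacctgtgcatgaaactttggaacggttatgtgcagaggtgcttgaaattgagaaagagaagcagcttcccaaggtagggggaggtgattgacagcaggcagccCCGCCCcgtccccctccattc
Col11a1, chr3:114030290-114030539, plus strand: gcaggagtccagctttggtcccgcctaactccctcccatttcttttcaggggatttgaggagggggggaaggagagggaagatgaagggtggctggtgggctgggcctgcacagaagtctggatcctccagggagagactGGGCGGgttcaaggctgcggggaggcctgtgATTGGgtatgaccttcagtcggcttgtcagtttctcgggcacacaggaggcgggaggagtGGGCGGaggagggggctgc
Col11a2, chr17:34038888-34039137, plus strand: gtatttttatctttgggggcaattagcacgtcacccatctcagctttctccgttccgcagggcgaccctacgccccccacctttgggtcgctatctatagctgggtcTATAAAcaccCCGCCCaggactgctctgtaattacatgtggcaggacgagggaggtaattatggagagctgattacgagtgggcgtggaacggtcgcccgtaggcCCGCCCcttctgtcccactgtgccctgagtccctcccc
Col7a1, chr9:108953336-108953585, plus strand: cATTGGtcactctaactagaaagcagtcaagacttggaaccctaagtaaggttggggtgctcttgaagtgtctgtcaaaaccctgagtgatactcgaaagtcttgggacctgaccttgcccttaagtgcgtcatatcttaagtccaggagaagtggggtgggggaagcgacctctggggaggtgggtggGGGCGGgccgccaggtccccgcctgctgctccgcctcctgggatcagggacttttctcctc
Counted back from the first base of the gene, the TATA box letters of Col3a1 lie at -117 to -112 and those of Col11a2 at -143 to -138. The GC box letters of Col4a6 lie at -21 to -16, those of Col7a1 at -61 to -56, those of Col11a2 at -133 to -128 and -38 to -33, and those of Col11a1 at -110 to -105 and -19 to -14. The CCAAT box letters of Col11a1 lie at -79 to -75 and those of Col7a1 at -249 to -245, both on the opposite strand. RefSeq windows were found for 35 of 44 chains and 21 of 24 tested. Of the 21, 15 hold a GC box, 9 a CCAAT box, 2 a TATA box and 1 (Col6a1) an AP-1 site, while 58.5%, 35.9%, 6.26% and 4.38% of the windows of all tested genes and 32.7%, 33.8%, 12.4% and 6.75% of all windows do. The first counts are of chains with a match in any window, Col6a2 and Col18a1 having 2 windows each, and the percents are of single windows. A match is a run of letters and not a shown binding site.

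Genes that act on collagen were counted from 4 lists. With EIPA 8 of 19 tested genes of collagen folding and modification fell and 4 rose, as did 7 and 2 of 13 genes of procollagen processing and cross-linking. Of 8 collagen receptor and uptake genes 5 fell and none rose, while of 6 collagen-degrading proteases 4 rose and 1 fell. Mmp8, among those that rose, averaged only 0.648 TPM with EIPA and 0.094 TPM with vehicle. Adamts3, a processing gene that fell, averaged 0.262 TPM with EIPA and 0.82 TPM with vehicle. The filter counts libraries of all 4 groups, so genes this low in both groups could be tested, and the counts are descriptions. Over all genes tested 21.1% were called lower and 27.4% higher. Median changes were -0.10, -0.40, -0.19 and 0.56 in this order, and 0.02 over all genes tested. Fkbp10, an isomerase that helps procollagen fold, averaged 95.3 TPM with EIPA and 138 TPM with vehicle (-0.53 ± 0.05, limma adjusted p = 6.7e-09). P3h4, part of a complex that modifies procollagen in the endoplasmic reticulum, averaged 31.3 TPM with EIPA and 53.8 TPM with vehicle (-0.78 ± 0.09, limma adjusted p = 1.1e-06).

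The cross-linking enzyme Loxl2 averaged 21.3 TPM with EIPA and 124 TPM with vehicle (-2.49 ± 0.11, limma adjusted p = 1.3e-13), a larger change than that of any collagen chain in this comparison. Tll1, a protease of the family that cuts off procollagen C-propeptides, averaged 3.84 TPM with EIPA and 18.4 TPM with vehicle (-2.01 ± 0.12). The collagen receptor kinase Ddr1 fell (-0.79 ± 0.09), to 49.5 TPM with EIPA against 85.8 TPM with vehicle. The collagen-binding integrin subunit Itga11 also fell (-0.68 ± 0.13), at 0.322 TPM with EIPA and 1.15 TPM with vehicle. Ctsb, a lysosomal cysteine protease, rose to 609.9 TPM with EIPA, against 309 TPM with vehicle (0.98 ± 0.07, limma adjusted p = 4.1e-10). The collagenase Mmp13 rose to 33.1 TPM with EIPA, against 6.70 TPM with vehicle (2.16 ± 0.25, limma adjusted p = 5.3e-07).

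Low glutamine was compared with replete glutamine in vehicle libraries. At 0.2 mM 17 of the 24 chains were called lower than at 4 mM, 2 higher (Col11a2 and Col20a1, which were tested only through their 0.2 mM libraries) and 5 neither, where 27.9% of all genes tested were called lower, 45.4% higher and 73.3% in either direction. The median gene was itself higher by 0.14 on the log2 scale at 0.2 mM, so changes between the glutamine levels are given relative to it, while the calls are those of the unshifted values. The median chain changed by -1.17 relative to the median gene, and 17 of 24 chains, 15 lower and 2 higher, did not overlap between the groups, against 59.9% of all genes tested (22.7% lower and 37.2% higher). By class, 8 of 9 fibrillar, 1 of 4 basement membrane, 3 of 3 beaded filament, 2 of 3 FACIT, 2 of 2 short-chain chains and 1 of 2 multiplexins were lower. The summed TPM at 0.2 mM was 0.281 of that at 4 mM for fibrillar, 0.800 for basement membrane, 0.200 for beaded filament, 0.323 for FACIT and 0.155 for short-chain network chains. The summed fibroblast markers were at 2342 to 2636 TPM at 0.2 mM and 3338 to 4301 TPM at 4 mM, and the mesothelial markers at 334 to 473 TPM at 0.2 mM and 639 to 1091 TPM at 4 mM. The chondrocyte markers were at 4.6 to 5.99 TPM at 0.2 mM and 7.34 to 8.61 TPM at 4 mM, and the endothelial markers, higher at 0.2 mM, at 6.34 to 10.4 TPM against 2.92 to 4.04 TPM at 4 mM. These 4 lists did not overlap between the groups. The mitochondrial share was 8.87% at 0.2 mM and 10.4% at 4 mM (exact permutation p = 0.007937). The part of the marker lists in the result was not tested, and with the mitochondrial genes left out of the total 19 chains were called lower and 2 higher. Without the 3 libraries that stood apart, vehicle replicate 5 at 4 mM among them, 18 were called lower and 2 higher.

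Col1a1 had 744, 690.3, 573, 761 and 607 TPM at 0.2 mM, against 3134, 3137, 3046, 3425 and 3697 TPM at 4 mM. Col1a2 had 492, 435, 426, 553 and 484 TPM at 0.2 mM, against 1811, 1839.6, 1791, 2133 and 2515 TPM at 4 mM. No library of either gene came near the other group, and both were lower, with log2 fold changes of -2.42 ± 0.11 (limma adjusted p = 2.2e-13) for Col1a1 and -2.21 ± 0.16 (limma adjusted p = 2.8e-10) for Col1a2. Col3a1 had 227, 179, 196, 275 and 200.1 TPM at 0.2 mM, against 713, 668, 765, 953 and 1047 TPM at 4 mM, a change of -2.07 ± 0.18 (limma adjusted p = 4.1e-09). Col11a1 averaged 10.2 ± 2.20 TPM at 0.2 mM and 48.6 ± 5.02 TPM at 4 mM (-2.30 ± 0.15). On the log2(TPM + 1) scale smaller changes were found in Col27a1 (-1.52 ± 0.10), Col5a1 (-1.11 ± 0.06), Col5a3 (-1.09 ± 0.11) and Col5a2 (-0.46 ± 0.08, limma adjusted p = 0.0013), all called lower. This scale understates low chains. The ratio of mean TPM at 0.2 mM to that at 4 mM was 0.236 for Col5a3 and 0.289 for Col27a1. It was 0.237 for Col1a2, 0.259 for Col3a1, 0.509 for Col5a1 and 0.798 for Col5a2. Col5a2 averaged 451 ± 48.4 TPM at 0.2 mM and 565 ± 37.8 TPM at 4 mM, and its groups overlapped. Col11a2 had 1.38, 3.94, 1.94, 2.15 and 4.07 TPM at 0.2 mM, against 0.31, 0.43, 0.41, 0.54 and 0.31 TPM at 4 mM, a change of 1.20 ± 0.16. Col11a2 was tested only because it is high at 0.2 mM, and Col5a3 because it is high at 4 mM, so their differences between the glutamine levels are descriptions.

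Col6a1, Col6a2 and Col8a1 had changes close in size to those of the type I chains. Col6a1 had 49.8, 44.1, 42.5, 49.5 and 36.7 TPM at 0.2 mM, against 188, 186, 211, 219 and 295 TPM at 4 mM, and Col6a2 had 26.1, 23.3, 20, 23.6 and 18.9 TPM at 0.2 mM, against 102, 101, 119, 119 and 160.3 TPM at 4 mM. In both genes the groups were far apart (-2.40 ± 0.17, limma adjusted p = 1.5e-10, and -2.50 ± 0.18, limma adjusted p = 2.4e-10), while Col6a3 changed by -0.95 ± 0.13 and was also called lower. Col8a1 had 4.28, 3.64, 4.38, 5.68 and 6.44 TPM at 0.2 mM, against 32.1, 33.5, 36.6, 32.7 and 29 TPM at 4 mM, which was the largest change of all 24 chains on the log2(TPM + 1) scale (-2.67 ± 0.21, limma adjusted p = 7.3e-10). By the ratio of mean TPM, the low chains Col20a1 (7.89 times higher at 0.2 mM) and Col11a2 (6.74 times) changed more than Col8a1 (6.70 times lower). Col8a2 had 1.02, 0.93, 0.96, 1.65 and 1.16 TPM at 0.2 mM, against 5.65, 4.94, 5.6, 8.48 and 6.39 TPM at 4 mM (-1.88 ± 0.15). In both short-chain genes the highest library at 0.2 mM lay far below the lowest at 4 mM.

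Among FACITs, Col12a1 had 30, 28.9, 23.3, 25.8 and 24.1 TPM at 0.2 mM, against 113, 116, 112, 102 and 103 TPM at 4 mM (-2.15 ± 0.10, limma adjusted p = 8.0e-13). Col16a1 had 23.9, 23.1, 20.6, 29.1 and 21.6 TPM at 0.2 mM, against 55.2, 49.3, 45.7, 52 and 56.5 TPM at 4 mM (-1.24 ± 0.13). Col20a1 went the other way without overlap, 0.89 to 1.89 TPM at 0.2 mM and 0.07 to 0.23 TPM at 4 mM (0.84 ± 0.13), with the exon shared with BX649560.1 as above, and it too was tested only through its 0.2 mM libraries. The multiplexin Col18a1 had 1.39, 2.14, 1.61, 2.71 and 1 TPM at 0.2 mM, against 7.2, 5.61, 6.58, 6.15 and 6.55 TPM at 4 mM, and was called lower (-1.59 ± 0.15). Col15a1 had 0.81, 0.95, 1.25, 0.8 and 2.09 TPM at 0.2 mM, against 1.32, 1.21, 2.18, 1.02 and 1.83 TPM at 4 mM, with overlapping groups and no call (-0.35 ± 0.20, limma adjusted p = 0.33). Col7a1 had 4.76, 5.48, 5.56, 3.48 and 2.61 TPM at 0.2 mM, against 6.57, 5.67, 4.57, 3.64 and 5.39 TPM at 4 mM, also with overlap (-0.35 ± 0.19, limma adjusted p = 0.33).

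Of the type IV chains, 1 of 4 was called between the glutamine levels. Col4a1 had 290.3, 281, 239, 277 and 219.6 TPM at 0.2 mM, against 453, 410.4, 394, 334 and 269.7 TPM at 4 mM, and was called lower (-0.63 ± 0.13, limma adjusted p = 0.0022) although the groups overlapped. Col4a2 had 162, 151, 129, 147 and 118 TPM at 0.2 mM, against 209, 192, 171, 150.3 and 133 TPM at 4 mM (-0.40 ± 0.12, limma adjusted p = 0.061). Col4a6 had 30.3, 27.4, 28.3, 37.8 and 29.9 TPM at 0.2 mM, against 34, 34.2, 34.4, 39.8 and 44.2 TPM at 4 mM (-0.41 ± 0.13, limma adjusted p = 0.068). Neither was called, but both were called lower under median-of-ratios scaling and with mitochondrial genes left out. Both were also called lower in a fit with the replicate number as a block. Col4a6 was also called in the fit of these groups alone, and Col4a2 without the 3 libraries that stood apart. Col4a5 averaged 120.3 ± 9.91 TPM at 0.2 mM and 111 ± 3.51 TPM at 4 mM (-0.02 ± 0.08, limma adjusted p = 0.22), and its unshifted change of 0.11 was -0.03 under median-of-ratios scaling.

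Of the genes that act on collagen, 14 of 19 for folding and modification were lower and 1 higher at 0.2 mM, 7 and 2 of 13 for processing and cross-linking, 4 and 2 of 8 for receptors and uptake, and 4 and 1 of 6 degrading proteases. These counts stand beside 27.9% of all genes tested called lower and 45.4% called higher, so that the shares called in either direction in the lists for processing and for receptors were near the 73.3% of all genes. Mmp8, called lower, averaged 0.094 TPM at 0.2 mM and 1.88 TPM at 4 mM and could not have been tested without 4 mM libraries. Adamts3, also called lower, averaged 0.82 and 3.73 TPM, and Itga10, called higher, 1.75 and 0.94 TPM. For such low genes the filter bears on the call, so the counts are descriptions. Relative to the median gene, their median changes were -0.73, -0.57, -0.57 and -1.07. P4ha3, a subunit of a prolyl hydroxylase, averaged 1.62 TPM at 0.2 mM and 18.1 TPM at 4 mM (-3.01 ± 0.09, limma adjusted p = 9.1e-16). Fkbp10 averaged 138 TPM at 0.2 mM and 279.6 TPM at 4 mM (-1.15 ± 0.05). The procollagen N-proteinase Adamts2 averaged 6.60 TPM at 0.2 mM and 29.1 TPM at 4 mM (-2.12 ± 0.13), while the lysyl oxidase family member Loxl4 was higher at 0.2 mM, 14.6 against 3.30 TPM (1.75 ± 0.14). The integrin subunits Itga11 and Itga1, which bind collagens, were called lower (-3.28 ± 0.13 and -1.67 ± 0.12). Mmp14, a membrane-bound collagenase, averaged 116 TPM at 0.2 mM and 296 TPM at 4 mM (-1.48 ± 0.10), and the lysosomal protease Ctsl was higher at 0.2 mM, 757 against 472 TPM (0.55 ± 0.08).

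The EIPA and glutamine comparisons share the 5 vehicle libraries at 0.2 mM. Their values are therefore set side by side without a test of the difference. In this paragraph the changes of both comparisons are unshifted, so those with low glutamine are not relative to the median gene. Col3a1 changed by -2.39 ± 0.18 with EIPA and by -1.94 ± 0.18 with low glutamine. Col5a2 changed by -1.17 ± 0.08 with EIPA and by -0.33 ± 0.08 with low glutamine. Col4a6 changed by -1.48 ± 0.13 with EIPA and by -0.27 ± 0.13 with low glutamine (not called). Col8a1 changed by 0.27 ± 0.21 with EIPA (not called) and by -2.54 ± 0.21 with low glutamine. The type VI chain Col6a1 changed by -0.57 ± 0.17 with EIPA and by -2.26 ± 0.17 with low glutamine. Its partner Col6a2 changed by -0.60 ± 0.18 with EIPA and by -2.37 ± 0.18 with low glutamine. By mean level Col1a1 stood in the order 262 TPM with EIPA, 675 TPM with vehicle at 0.2 mM, 3084 TPM for IL-1a and 3288 TPM for vehicle at 4 mM, the last 2 overlapping.

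The IL-1a response was read at 4 mM glutamine. None of the 24 chains was called in either direction by limma, where 35 of 12350 genes (0.283%) were, 0.259% higher and 0.0243% lower. Col6a3 alone of the 24 passed an unadjusted p of 0.05, as did 6.02% of all genes tested (-0.29 ± 0.13, limma adjusted p = 0.80). The changes ran from -0.29 (Col11a1) to 0.15 (Col27a1), and no chain lacked overlap between the groups, where 1.38% of all genes did (0.777% higher and 0.599% lower). Leaving out the 3 libraries that stood apart again gave no call, with changes of -0.22 for Col1a1, -0.19 for Col1a2, -0.22 for Col6a1 and -0.30 for Col6a2. The part of collagen RNA in fibrillar chains was 84.6% ± 2.28 with IL-1a and 84.8% ± 1.62 with vehicle.

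Col1a1 had 3663, 2697, 2464, 3054 and 3545 TPM with IL-1a, against 3046 to 3697 TPM with vehicle (-0.11 ± 0.11). Col1a2 had 2582, 1665, 1441, 1905 and 2428 TPM with IL-1a, against 1791 to 2515 TPM with vehicle (-0.03 ± 0.16). Col3a1 had 1076, 522, 492, 793 and 909 TPM with IL-1a, against 668 to 1047 TPM with vehicle (-0.17 ± 0.18). In each of these fibrillar genes replicates 1 and 5 were the highest IL-1a libraries, and replicate 5 was the highest vehicle library. Col6a1 had 331, 169, 149, 199.6 and 272 TPM with IL-1a, against 186 to 295 TPM with vehicle (-0.01 ± 0.17). Col6a2 had 194, 86, 76.7, 108 and 145 TPM with IL-1a, against 101 to 160.3 TPM with vehicle (-0.05 ± 0.18). The same 3 libraries were again the highest. Col4a1 had 301, 389, 398, 311 and 252 TPM with IL-1a, against 269.7 to 453 TPM with vehicle (-0.17 ± 0.13), and Col4a2 had 149.8, 186, 185, 142 and 123 TPM with IL-1a, against 133 to 209 TPM with vehicle (-0.12 ± 0.12). Here IL-1a replicates 2 and 3 were the highest of their group. Col4a6 had 40.6, 30.3, 26.7, 37.7 and 43.7 TPM with IL-1a, against 34 to 44.2 TPM with vehicle (-0.07 ± 0.13).

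Col12a1 had 99.2, 121, 104, 107 and 99.1 TPM with IL-1a, against 102 to 116 TPM with vehicle (-0.04 ± 0.10). Col16a1 had 64.5, 52.9, 51.1, 46.2 and 54.1 TPM with IL-1a, against 45.7 to 56.5 TPM with vehicle (0.05 ± 0.13). Over these 10 libraries Col12a1 ran from 99.1 to 121 TPM and Col16a1 from 45.7 to 64.5 TPM. Col8a1 had 23.1, 36.5, 41, 33.1 and 26.8 TPM with IL-1a, against 29 to 36.6 TPM with vehicle, and Col8a2 had 5.23, 5.18, 3.71, 6.88 and 8.16 TPM with IL-1a, against 4.94 to 8.48 TPM with vehicle. Col18a1 had 9.57, 6.67, 5.4, 5.81 and 7.31 TPM with IL-1a, against 5.61 to 7.2 TPM with vehicle, and Col15a1 had 2.55, 0.82, 0.84, 1.48 and 2.6 TPM with IL-1a, against 1.02 to 2.18 TPM with vehicle. Col7a1 had 3.16, 6.18, 8.58, 3.94 and 4.34 TPM with IL-1a, against 3.64 to 6.57 TPM with vehicle, and Col11a2 had 0.7, 0.36, 0.48, 0.59 and 0.47 TPM with IL-1a, against 0.31 to 0.54 TPM with vehicle. In all 6 the ranges of the groups overlapped, and their changes lay between -0.10 (Col8a2) and 0.12 (Col11a2). In the 4 collagen pathway lists limma called no gene with IL-1a, and at an unadjusted p under 0.05 1 of 19 for folding and modification, 2 of 13 for processing and cross-linking, 1 of 8 for receptors and uptake and 2 of 6 degrading proteases passed, where 6.02% of all genes tested did.

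Over the 10 libraries at 4 mM glutamine, the 3 that stood apart had more Col1a1, Col1a2, Col5a3, Col4a6, Col6a1 and Col6a2 than any of the other 7, and less Col4a1 and Col8a1. In the other 16 chains they overlapped with the 7. Of all genes tested 22.5% did not overlap between the 3 and the 7 libraries, 15.7% higher and 6.74% lower in the 3. Col6a1 was at 331, 272 and 295 TPM in IL-1a replicates 1 and 5 and vehicle replicate 5, against 149 to 219 TPM in the 7. Col4a1 was at 301, 252 and 270 TPM in the 3, against 311 to 453 TPM in the 7. These libraries were told apart by Ccn1 and not by a label, so no test is given.

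**Figure D4:**
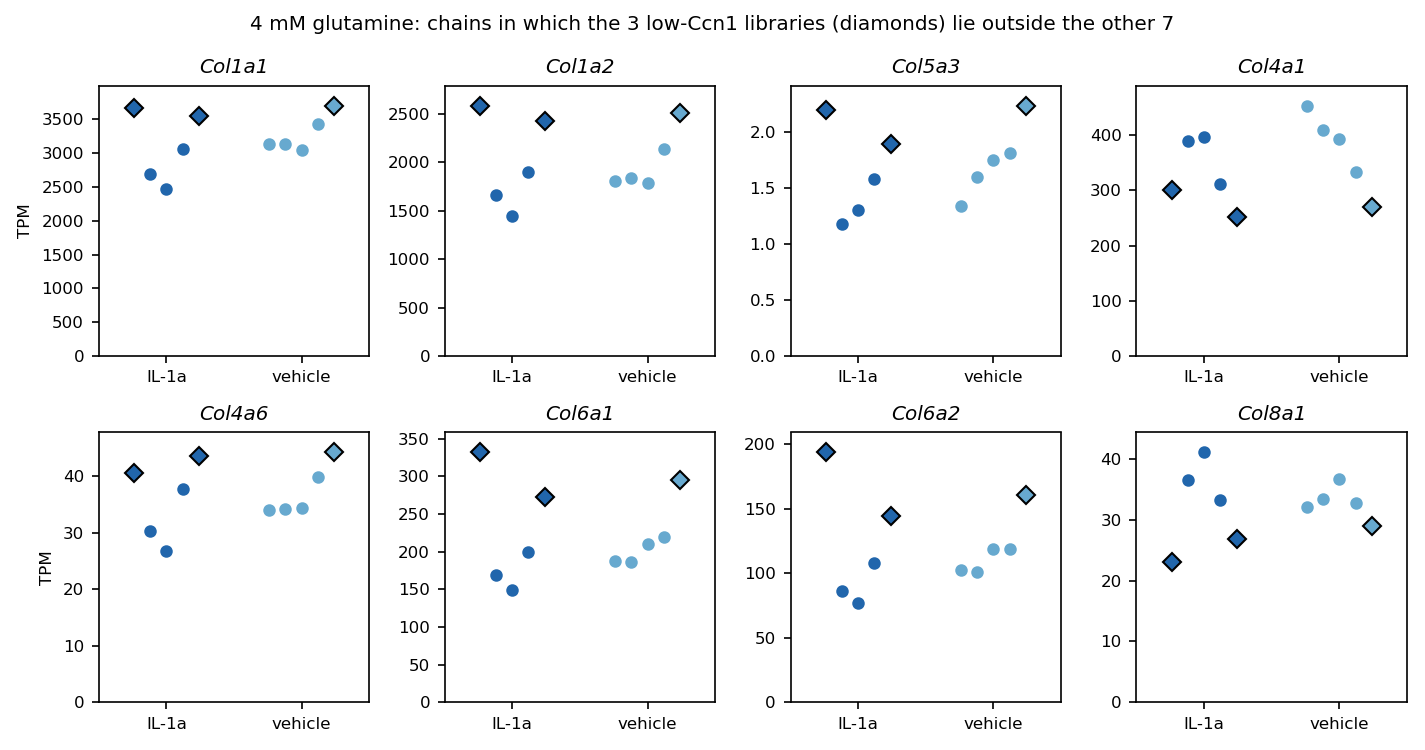
TPM of the 8 collagen chains in which the 3 libraries that stood apart (diamonds, IL-1a replicates 1 and 5 and vehicle replicate 5) lie outside the range of the other 7 libraries at 4 mM glutamine (circles), with IL-1a left of vehicle and axes from 0. In Col6a1 the diamonds are at 272 to 331 TPM and the circles at 149 to 219 TPM, while in Col4a1 and Col8a1 the diamonds are the lower ones.

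The difference between the EIPA response at 0.2 mM and the IL-1a response at 4 mM, which share no library but differ in glutamine, was tested as well. It was called lower in 11 of 24 chains and higher in 2, where 12.6% of all genes tested were called lower, 16.3% higher and 28.9% in either direction. The lower calls were led by Col3a1 (-2.21 ± 0.25, limma adjusted p = 1.9e-06), Col1a2 (-1.42 ± 0.23), Col4a6 (-1.40 ± 0.19), Col1a1 (-1.26 ± 0.15), Col5a2 (-1.01 ± 0.12) and Col5a1 (-0.99 ± 0.08). Further ones were Col12a1 (-0.87 ± 0.15), Col16a1 (-0.72 ± 0.19), Col6a3 (-0.60 ± 0.19), Col4a5 (-0.57 ± 0.11) and Col27a1 (-0.38 ± 0.14, limma adjusted p = 0.046). Col7a1 (1.09 ± 0.28, limma adjusted p = 0.0055) and Col11a2 (0.66 ± 0.23, limma adjusted p = 0.038) were called higher. Without the 3 libraries that stood apart, 9 chains were called lower and 1 higher. The call of Col11a2 was lost with a pseudocount of 0.1, no filter, mitochondrial genes left out or without these 3 libraries. Col27a1 (-0.30) and Col6a3 (-0.42) lost theirs without the 3 libraries, and Col27a1 also with no filter. For Col6a1, Col6a2, Col11a1 and Col15a1, which fell with EIPA, the difference of the responses was not called (limma adjusted p = 0.08, 0.11, 0.076 and 0.051). In the pathway lists the difference was called lower in 5 and higher in 3 of 19 genes of folding and modification, and 5 and 1 of 13 of processing and cross-linking. It was called lower in 1 and higher in 0 of 8 of receptors and uptake, and 1 and 3 of 6 degrading proteases. Beside 12.6% lower and 16.3% higher over all genes tested, the receptor genes called lower and the folding genes called higher were near those shares.

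The ratio between partner chains overlapped between the groups for some collagens and not for others. The ratio of Col1a1 to Col1a2 was 1.52 ± 0.278 with EIPA, 1.42 ± 0.134 with vehicle at 0.2 mM, 1.56 ± 0.120 for IL-1a and 1.64 ± 0.107 for vehicle at 4 mM (SD, n = 5 each). The ratio of Col6a1 to Col6a2 was likewise 2.06 ± 0.236 with EIPA, 2.0 ± 0.109 with vehicle at 0.2 mM, 1.87 ± 0.101 for IL-1a and 1.82 ± 0.0314 for vehicle at 4 mM. These ratios overlapped between EIPA and vehicle at 0.2 mM. Between vehicle at 0.2 mM and at 4 mM, Col1a1 to Col1a2 overlapped, while Col6a1 to Col6a2 did not (1.90 to 2.12 and 1.77 to 1.85). Col6a1 to Col6a3 was 38.9 to 163 with EIPA and 21.1 to 30.0 with vehicle at 0.2 mM, without overlap, but Col6a3 was at only 0.21 to 0.73 TPM with EIPA. Col4a5 to Col4a6, by contrast, stood at 7.48 ± 0.660 with EIPA and 3.94 ± 0.248 with vehicle at 0.2 mM, without overlap, and at 3.0 ± 0.309 with vehicle at 4 mM. Col1a1 to Col3a1, chains that mix in fibrils, stood at 6.54 ± 0.467 with EIPA and 3.18 ± 0.429 with vehicle at 0.2 mM, also without overlap. Col5a1 to Col5a2 was 0.349 ± 0.0518 with EIPA, 0.330 ± 0.0402 with vehicle at 0.2 mM and 0.513 ± 0.0268 with vehicle at 4 mM. Col4a1 to Col4a2 was 1.65 ± 0.0693 with EIPA, 1.85 ± 0.0328 with vehicle at 0.2 mM and 2.17 ± 0.103 with vehicle at 4 mM, with no overlap between these 3 groups. The ratios are descriptions and were not tested.

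**Figure D5:**
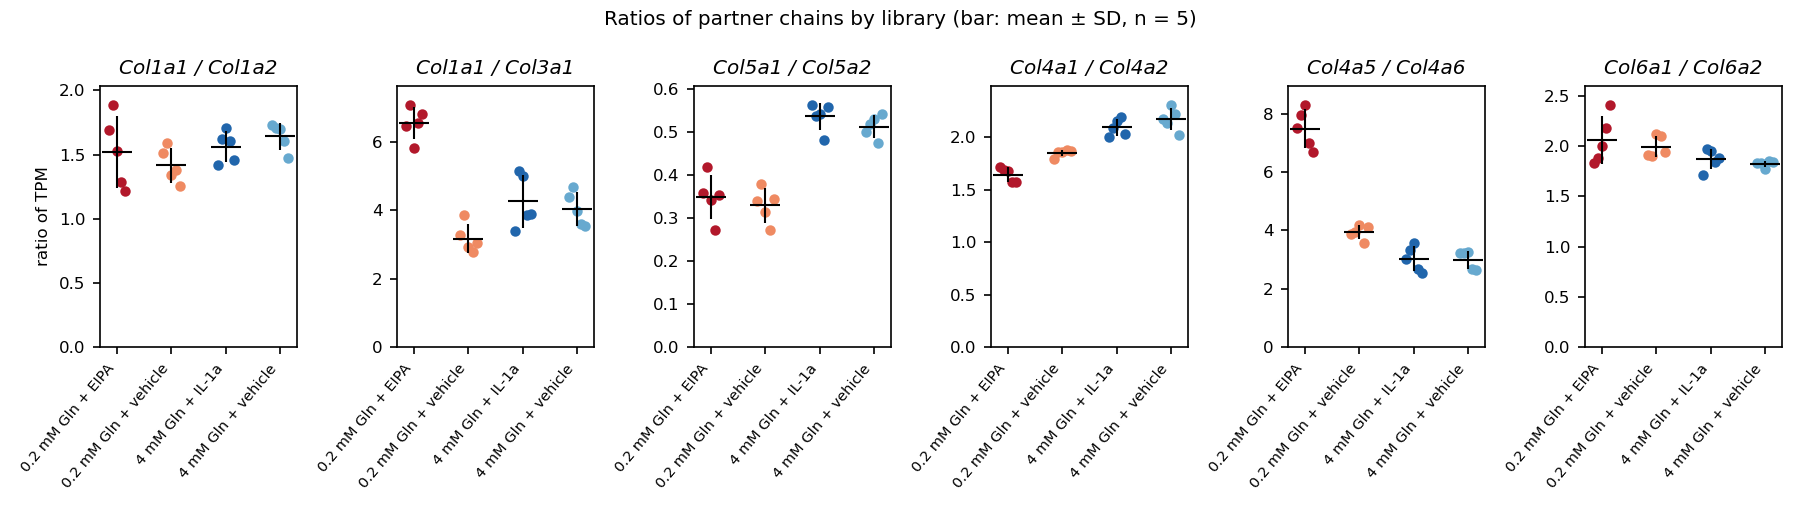
Ratio of TPM between partner chains in each library (points) with the mean and SD of 5 libraries (bars), for 0.2 mM glutamine with EIPA, 0.2 mM with vehicle, 4 mM with IL-1a and 4 mM with vehicle, on axes that start at 0. The ratio of Col4a5 to Col4a6 is 6.67 to 8.28 with EIPA and 3.57 to 4.19 with vehicle at 0.2 mM, while that of Col1a1 to Col1a2 overlaps between these groups.

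The other 20 chains did not reach 1 TPM in 5 libraries. Nearest to it were Col24a1, Col9a3 and Col14a1, each at 1 TPM or more in 3 libraries, with highest values of 3.04, 1.85 and 1.28 TPM, while Col20a1 passed with 9 libraries. Col24a1, a fibrillar chain, had 3.04, 0.71, 0.61, 1.74 and 1.01 TPM with IL-1a, against 0.16, 0.16, 0.98, 0.22 and 0.36 TPM with vehicle at 4 mM, and the ranges overlapped. The remaining 17 stayed below 1 TPM in every library. Among fibrillar and basement membrane chains, Col2a1, the main chain of cartilage, reached 0.28 TPM, and Col4a3 and Col4a4, the chains of the kidney filter, 0.19 and 0.22 TPM. Of the FACITs, Col19a1 and Col9a2 reached 0.06 and 0.02 TPM, and Col9a1 and Col22a1 were listed at 0 in all libraries. The transmembrane chains Col17a1, a part of epithelial hemidesmosomes, Col23a1 and Col25a1 reached 0.38, 0.04 and 0.03 TPM, and Col13a1 was listed at 0. Summed transmembrane chains averaged 0.0400 TPM with EIPA, 0.0440 with vehicle at 0.2 mM, 0.122 for IL-1a and 0.178 for vehicle at 4 mM. Col10a1, known from growth plate cartilage, reached 0.07 TPM, Col26a1 0.88 TPM and Col28a1 0.23 TPM. Sequencing depth is unknown, so how few reads stand behind such values cannot be said.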

How the data were processed

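Polyadenylated RNA was sequenced with paired 75-base reads, per the labels' protocols. The deposited values are TPM made by the authors with RSEM on mm10, per the submitters' processing notes. The sources used here name neither RSEM's version nor the aligner or annotation. Each library sums to the same total, so the depth is unknown and no counting interval can be given. No library was left out. Here log2(TPM + 1) was taken for the 12350 genes that reached 1 TPM in 5 or more libraries and fitted in limma 3.58.1 (R 4.3.3), with an intensity trend and all 20 libraries in 1 model. P-values were adjusted by the Benjamini-Hochberg method over these genes and called under 0.05, which limma gives as a two-sided test. Fold changes are on the log2(TPM + 1) scale, which understates the change of low genes. The mitochondrial share was compared by an exact permutation test. The steps were tested on simulated data. No libraries were identical. Gene positions come from GENCODE M21 (mm10), where 32158 of 32285 gene IDs matched, all 44 chains among them. Per-library values are given for the 2 chains of each class with the highest mean among those tested and for called chains with the largest change, up to 2 in each direction of a comparison, with at least 5 TPM in the higher group. Of the pathway lists, the 2 called genes of each list with the smallest adjusted p are named. The alternatives were a pseudocount of 0.1, other filters, median-of-ratios scaling, leaving genes or libraries out, the groups of a comparison alone, no trend and a replicate block. The members, classes and gene lists were chosen with earlier results of these data known.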

Additional observations from a re-analysis of the deposited data

Results flagged for a closer look

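Among 104 groups of 5 libraries, 4 held a library that lay far from the other 4 of its group, where chance gives about 1 in 20. Col27a1 was at 2.5 TPM in vehicle replicate 4 at 0.2 mM glutamine, with 1.62 to 1.82 TPM in the others, and at 7.85 TPM in IL-1a replicate 1 at 4 mM, with 6.88 to 7.11 TPM in the others. Col4a6 was at 37.75 TPM in vehicle replicate 4 at 0.2 mM, with 27.36 to 30.28 TPM in the others. Col15a1 was at 0.59 TPM in EIPA replicate 4, with 0.22 to 0.27 TPM in the others.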

How the results depend on the processing

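The number of chains called lower stayed within 1.5 times of 14 with EIPA, 17 at 0.2 against 4 mM glutamine and 11 in the difference of responses under every alternative run, and no chain was called with IL-1a under any. The number called higher was more sensitive: with EIPA it was 1 in place of 2 with a filter at a mean of 5 TPM. Between the glutamine levels it was 5 without a filter, where the low chains Col26a1, Col9a3 and Col9a2 joined, and 0 with the filter at 5 TPM, which removes Col20a1 and Col11a2. In the difference of responses it was 1 in place of 2 with a pseudocount of 0.1, no filter, the filter at 5 TPM, mitochondrial genes left out or without the 3 libraries that stood apart, and the cause was not tested. Leaving out 1 library at a time gave 2 to 3 chains higher and 14 to 15 lower with EIPA, 2 higher and 17 to 18 lower between the glutamine levels, 0 with IL-1a, and 1 to 2 higher and 10 to 14 lower in the difference. Values near 0 changed sign: Col18a1 with EIPA (0.0209 with a pseudocount of 0.1, -0.11 to 0.11 leaving out 1 library), Col4a5 between the glutamine levels (-0.0346 under median-of-ratios scaling), and with IL-1a, leaving out 1 library, Col1a2 (-0.13 to 0.0783), Col6a1 (-0.17 to 0.12), Col6a2 (-0.23 to 0.10) and Col16a1 (-0.0170 to 0.10, and -0.0131 without the 3 libraries). The mitochondrial share difference with IL-1a was -0.64 to 0.11 points. Without the mitochondrial genes all chains summed to 2930 TPM with vehicle at 0.2 mM and 9254 TPM with vehicle at 4 mM. Correlations between same-numbered libraries were all positive for EIPA (0.062 to 0.322) and glutamine (0.0495 to 0.167), and -0.281 to 0.602 for IL-1a. The labels do not give the source of the replicates, so the main fit took no pairing by number. Whether the numbers mark libraries that belong together was not tested. With a replicate block 2 chains were called higher and 15 lower with EIPA, 2 and 19 between the glutamine levels, 0 and 0 with IL-1a, and 2 and 13 in the difference. Outside the difference, the chains called under the block and not without it were Col4a1 with EIPA (-0.27) and Col4a2 (-0.26) and Col4a6 (-0.27), not set against the median gene, between the glutamine levels. Libraries correlated best with their own number in 4 of 5 numbers for EIPA, 2 for IL-1a and 4 for glutamine. Depth is unknown, so what it limits among the low chains cannot be given.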

Other observations

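Without a filter on low values, 3 further chains were called higher at 0.2 than at 4 mM glutamine in vehicle (limma), Col26a1 by a log2 change of 0.67 ± 0.08, Col9a3 by 0.55 ± 0.15 (adjusted p = 0.0037) and Col9a2 by 0.02 ± 0.01 (adjusted p = 0.046). Col14a1 (-0.50 ± 0.13), Col28a1 (-0.19 ± 0.03) and Col6a6 (-0.08 ± 0.03) were among those called lower. The highest value in any library was 1.85 TPM for Col9a3, 1.28 TPM for Col14a1 and 0.88 TPM for Col26a1. It was 0.23 TPM for Col28a1, 0.18 TPM for Col6a6 and 0.02 TPM for Col9a2, which was listed at 0 or 0.02 TPM in every library. The scale used understates a change of low chains, but values this near 0 are uncertain. These changes are not set against the median gene.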
